A study of Homo sapiens with 6 samples.

Results

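The genes of glycolysis and of the hypoxia response were followed in 3 libraries from GPR56 knockout cells (KO) and 3 libraries from wild-type cells (WT) of HT1080, an established line from a human fibrosarcoma. The set was chosen by name, with earlier results of these data known. It held 36 genes, all of which had a row among the 58735 genes of the deposited expression table. It comprised the glucose importers, the glycolytic enzymes, the enzymes and transporters of lactate and pyruvate, a subunit and regulators of the hypoxia-inducible factor (HIF), and further genes that HIF is known to induce. GPR56 is an adhesion G protein-coupled receptor encoded by ADGRG1, and its gene was disrupted with CRISPR-Cas9. The sample descriptions carry the solvent name DMSO for KO and WT cells alike, and the cells were kept in DMEM with fetal bovine serum. The labels name no change of oxygen or glucose. They state neither the number of KO clones nor whether the libraries of a genotype came from separate cultures, so the spread behind each p-value is that of these libraries and may be technical. A difference between KO and WT is also one between the cell populations sampled.

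Glycolysis splits glucose into pyruvate in the cytosol, and lactate dehydrogenase and the monocarboxylate transporters dispose of pyruvate as lactate. When oxygen is short, the alpha subunits of HIF escape the prolyl hydroxylases that mark them for destruction, pair with ARNT and bind a core motif near target genes, among them most glycolytic enzymes. HIF1A itself is controlled mainly at the protein level, so its mRNA does not report its activity.

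ADGRG1 measured 2.68, 2.54 and 2.58 FPKM in the KO libraries, against 6.61, 6.07 and 6.87 FPKM in the WT libraries (log2 fold change −1.06, limma adjusted p = 6.24e-05). The KO mean was thus 0.399 of the WT mean, and the labels do not give the position of the cut. FPKM scale a gene's reads to its length and to the size of the library, and 16410352 to 17276269 reads per library lay behind them. Of 7 mesenchymal markers 5 had a mean of at least 1 FPKM. They summed to 702.5 to 806.8 FPKM in KO and 616.6 to 663.1 FPKM in WT libraries, while no epithelial, blood or endothelial marker reached that mean over all 6 libraries. The endothelial marker PECAM1 measured 1.427, 1.079 and 1.18 FPKM in KO and 0.289, 0.356 and 0.333 FPKM in WT. Those markers were low but summed higher in KO. The sums were 0.901 to 1.005 FPKM in KO and 0.332 to 0.384 FPKM in WT for 4 epithelial genes. They were 0.12 to 0.185 FPKM in KO and 0.0 to 0.068 FPKM in WT for 4 blood genes. For 3 endothelial genes they were 1.316 to 1.57 FPKM in KO and 0.402 to 0.415 FPKM in WT. CLDN4 gave most of the epithelial sum, at 0.93, 0.878 and 0.909 FPKM in KO and 0.327, 0.281 and 0.384 FPKM in WT. EPCAM and KRT19 reached at most 0.075 FPKM in any library. PECAM1 gave most of the endothelial sum, while KDR measured 0.018, 0.027 and 0.055 FPKM in KO and 0.126, 0.046 and 0.082 FPKM in WT. No blood gene exceeded 0.165 FPKM. The part of these markers in the results was not tested. CDH1 and PTPRC were at 0 throughout. The libraries also carried a trend with GC content that ran with genotype. GC content correlated with how far a gene lay above its 6-library mean at Spearman's rho of 0.23 to 0.47 in KO libraries and −0.63 to −0.02 in WT libraries, across genes, which are not independent replicates. Values with that trend and the trend with gene length removed are given where they end a call.

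Promoter windows are shown for 7 members, because HIF binds the core ACGTG (or GCGTG) and the calls of these genes held under every alternative that tested them. The windows come from RefSeq on GRCh38.p14, run 5′ to 3′ on the strand of the gene and span 250 bases before to 50 bases after an annotated start; 32 of the 36 members had at least 1. Capitals mark ACGTG on either strand.
ALDOC (chr17:28576846-28577145, minus strand): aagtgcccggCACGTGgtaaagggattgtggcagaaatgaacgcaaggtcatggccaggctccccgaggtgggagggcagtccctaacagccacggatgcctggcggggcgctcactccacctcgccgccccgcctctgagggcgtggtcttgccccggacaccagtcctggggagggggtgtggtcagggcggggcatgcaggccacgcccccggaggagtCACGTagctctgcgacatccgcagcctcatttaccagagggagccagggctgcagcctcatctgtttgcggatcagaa
ENO2 (chr12:6914330-6914629, plus strand): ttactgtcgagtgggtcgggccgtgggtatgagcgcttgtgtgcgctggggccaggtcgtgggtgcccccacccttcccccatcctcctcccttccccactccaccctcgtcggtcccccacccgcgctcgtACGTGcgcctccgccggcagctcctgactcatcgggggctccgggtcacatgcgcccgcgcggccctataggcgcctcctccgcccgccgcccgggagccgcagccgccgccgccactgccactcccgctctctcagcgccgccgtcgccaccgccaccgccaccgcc
ANKRD37 (chr4:185396591-185396890, plus strand): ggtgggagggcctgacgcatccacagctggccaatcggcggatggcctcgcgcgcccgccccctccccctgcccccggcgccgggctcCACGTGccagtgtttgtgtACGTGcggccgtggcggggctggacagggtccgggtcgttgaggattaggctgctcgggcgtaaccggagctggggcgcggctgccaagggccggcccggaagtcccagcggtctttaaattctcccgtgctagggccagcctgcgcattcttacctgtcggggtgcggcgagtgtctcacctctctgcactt
DDIT4 (chr10:72273674-72273973, plus strand): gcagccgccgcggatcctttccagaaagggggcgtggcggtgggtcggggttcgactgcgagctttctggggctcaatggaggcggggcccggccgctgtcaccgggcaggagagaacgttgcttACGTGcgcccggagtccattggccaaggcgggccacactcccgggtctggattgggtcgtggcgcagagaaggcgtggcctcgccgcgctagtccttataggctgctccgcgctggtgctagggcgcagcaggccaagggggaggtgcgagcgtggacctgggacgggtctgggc
PFKFB4 (chr3:48556754-48557053, minus strand): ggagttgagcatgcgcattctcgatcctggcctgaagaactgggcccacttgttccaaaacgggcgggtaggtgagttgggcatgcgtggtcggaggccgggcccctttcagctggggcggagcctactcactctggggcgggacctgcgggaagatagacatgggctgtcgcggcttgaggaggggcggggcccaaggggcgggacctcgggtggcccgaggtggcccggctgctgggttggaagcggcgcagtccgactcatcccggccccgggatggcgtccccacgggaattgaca
SLC2A1 (chr1:42958819-42959118, minus strand): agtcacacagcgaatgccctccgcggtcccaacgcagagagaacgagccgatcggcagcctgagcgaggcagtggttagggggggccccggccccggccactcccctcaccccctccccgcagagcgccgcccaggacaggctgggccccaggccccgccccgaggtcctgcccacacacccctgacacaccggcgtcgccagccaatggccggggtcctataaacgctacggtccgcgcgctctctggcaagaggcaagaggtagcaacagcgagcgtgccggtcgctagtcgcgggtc
VLDLR (chr9:2621537-2621836, plus strand): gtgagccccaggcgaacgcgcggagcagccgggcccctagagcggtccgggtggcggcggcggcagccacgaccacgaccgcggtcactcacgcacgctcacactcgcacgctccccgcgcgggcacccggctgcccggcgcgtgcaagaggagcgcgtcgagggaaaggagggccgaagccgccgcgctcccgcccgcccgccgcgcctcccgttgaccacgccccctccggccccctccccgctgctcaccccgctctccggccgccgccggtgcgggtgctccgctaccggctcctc

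ACGTG was present on either strand in 24 of the 59 windows of members (40.7%), against 7518 of 35116 windows of all genes (21.4%). GCGTG, searched in the same way, was in 25 of the 59 windows (42.4%) and in 36.5% of all windows. Every CACGTG (E-box) holds ACGTG on both strands, and it was in 8 of the 59 windows and in 7.3% of all. The windows of ALDOC and ANKRD37 each held such an E-box and a further ACGTG, ENO2 and DDIT4 held a single ACGTG, 118 and 125 bases before the start, and PFKFB4 and SLC2A1 held none and 1 GCGTG each. The window of VLDLR, which was called lower, held no ACGTG and 5 GCGTG. Matches were not confined to genes that differed: of the members with a window, 8 of 12 called higher, 0 of 1 called lower and 11 of 16 that did not pass held ACGTG. The 59 windows belong to 32 members, 20 of which held ACGTG. Windows of the same gene can overlap, so a match can be counted more than 1 time. Known HIF targets are among the members, so their share beside all windows is a description and no independent test. A match of 5 letters is a description of the window only, and its absence says nothing of sites elsewhere.

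More members were called higher than lower in KO cells. The members were chosen with earlier results of these data known, so their counts beside all genes are a description and no independent test. Differences were tested with limma on log2(FPKM + 1), in which a gene was called at a Benjamini-Hochberg adjusted p under 0.05, and 12000 genes with a mean of at least 1 FPKM entered the test. Of the 36 members 32 were tested: 14 were called higher in KO, 2 were called lower and 16 did not pass. Among all tested genes 21.0% were called higher and 22.4% lower. The median log2 fold change was 0.21 over the tested members and −0.01 over all tested genes; the members' median was 0.12 after the GC and length correction and 0.14 under quantile normalization. In 15 tested members every KO library lay above every WT library, an arrangement that 26.4% of all tested genes showed, and in 2 every KO library lay below, as in 28.3% of all. Higher calls of at least 1.5-fold on the log2(FPKM + 1) scale were made for 6 members and for 6.22% of all tested genes. The 6 members were ALDOC, PFKFB4, ENO2, NDRG1, ANKRD37 and DDIT4. The members' count of higher calls was 9 without KO 2, 8 without KO 3, 7 without WT 1 and 9 under quantile normalization. Over all 12000 genes higher calls numbered 1878, 2095, 1853 and 2572 in these settings, against 2525 in the main test. The members' count of lower calls was 4 without WT 3, where all genes gave 2715, against 2682 in the main test. In bulk RNA, fewer cells expressing a gene and less RNA per cell cannot be told apart.

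**Figure D1:**
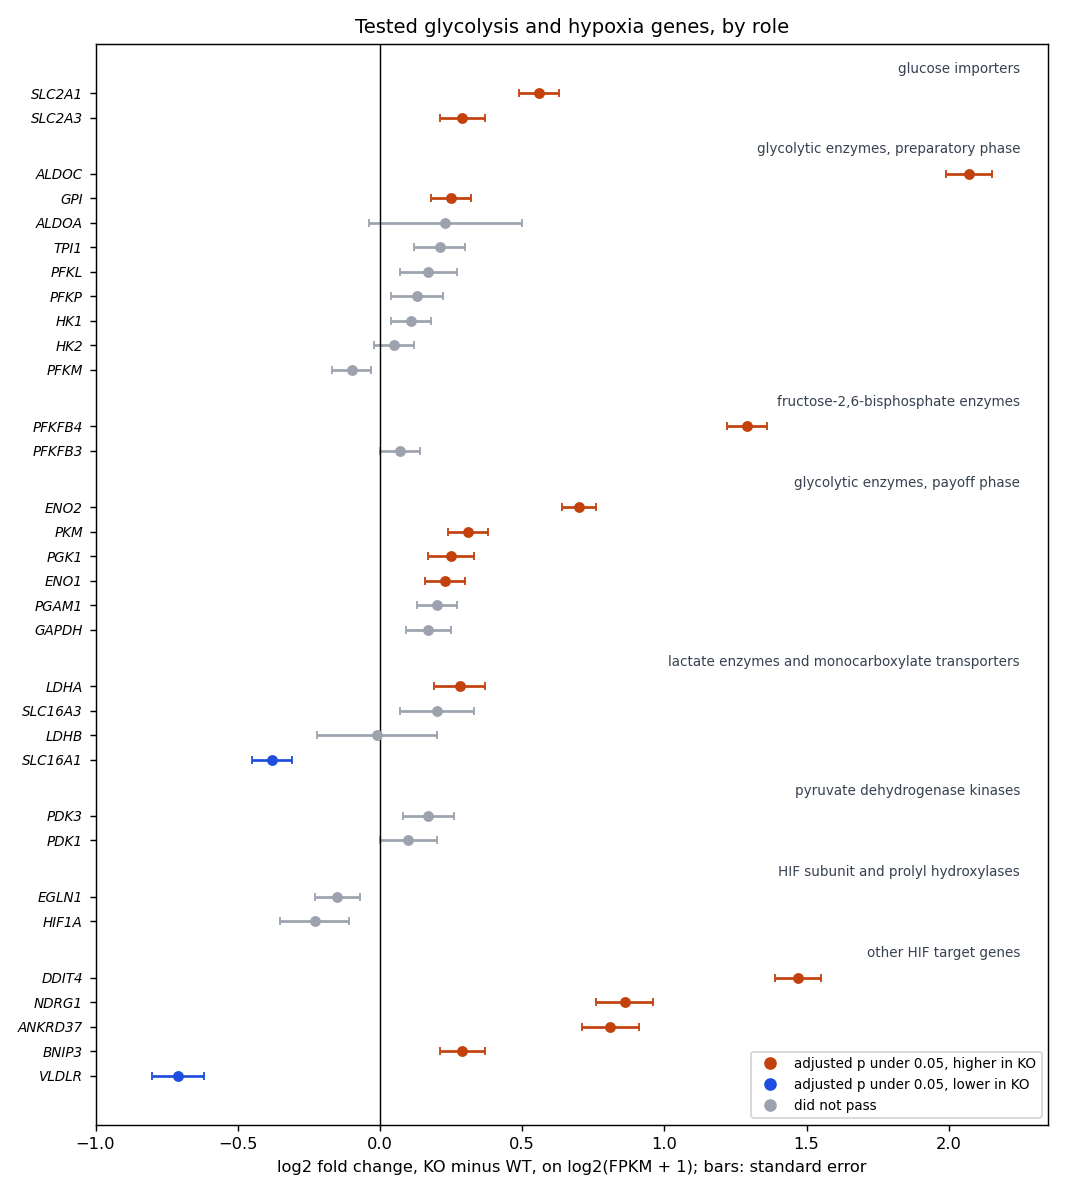
The horizontal axis gives the log2 fold change of KO minus WT on log2(FPKM + 1) for the 32 tested genes, with bars of 1 standard error, grouped by role and coloured by the limma call. ALDOC, PFKFB4, DDIT4, NDRG1, ANKRD37, ENO2 and SLC2A1 stand apart on the right, most glycolytic enzymes lie between 0 and 0.31, and SLC16A1 and VLDLR lie on the left.

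Both glucose importers were called higher in KO cells, as were 21.0% of all tested genes. SLC2A1, which encodes GLUT1, the basal glucose importer of most cells and a classic HIF target, measured 83.01, 87.86 and 85.79 FPKM in KO libraries, against 57.45, 53.82 and 61.92 FPKM in WT libraries. The lowest KO value lay well above the highest WT value, and the ratio of means was 1.48 (log2 fold change 0.56, SE 0.07, limma adjusted p = 0.000858). SLC2A3, which encodes the high-affinity importer GLUT3, measured 10.69, 11.85 and 13.06 FPKM in KO and 9.06, 9.56 and 9.91 FPKM in WT. Its groups did not overlap either, with a ratio of 1.25 (limma adjusted p = 0.0243). The call was lost in 4 of 15 alternative analyses, among them those without KO 2 (adjusted p = 0.0735), KO 3 (0.07) or WT 1 (0.0904), with a range of 0.0105 to 0.0904 over the alternatives. On the level scale GLUT1 mRNA was the main form, SLC2A3 making up 12.2 ± 0.9% of the summed FPKM of both in KO and 14.2 ± 0.8% in WT (SD, n = 3 each).

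Of the 9 enzymes from glucose to the triose phosphates, 2 rose and 7 did not pass, a share of higher calls close to the 21.0% of all tested genes. ALDOC, the aldolase isoenzyme best known from brain (minus strand of chromosome 17, 28573115 to 28577264 on GRCh38), had the largest difference among all tested members. It measured 17.26, 19.66 and 19.36 FPKM in KO, against 3.55, 3.49 and 4.13 FPKM in WT, from 867 to 990 and 170 to 201 reads per library. The KO mean was 5.04 times the WT mean (log2 fold change 2.07, SE 0.08, limma adjusted p = 9.39e-06), and the log2 fold change stayed between 1.91 and 2.30 over 15 alternatives. GPI, which interconverts glucose and fructose phosphates, measured 38.67, 44.19 and 43.81 FPKM in KO and 34.53, 33.88 and 37.39 FPKM in WT, a ratio of 1.20 (limma adjusted p = 0.0302). The GPI groups did not overlap, but 9 of 15 alternatives ended its call (adjusted p from 0.0196 to 0.117), including the GC and length correction (0.117) and each analysis without KO 2 (0.114), KO 3 (0.092), WT 1 (0.103) or WT 2 (0.073).

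The hexokinases that trap glucose as its phosphate gave overlapping groups. HK1 measured 74.74, 81.89 and 82.02 FPKM in KO and 72.10, 69.94 and 78.51 FPKM in WT (limma adjusted p = 0.24). HK2, the inducible and tumour-associated form, measured 19.51, 21.08 and 20.21 FPKM in KO and 20.37, 17.73 and 20.65 FPKM in WT (adjusted p = 0.626), a difference whose sign turned without WT 2. HK2 made up 20.3 ± 0.5% of the FPKM of both in KO and 21.0 ± 0.9% in WT (SD, n = 3 each). The committing enzyme phosphofructokinase-1 was dominated by its platelet-type gene PFKP, at 95.10, 98.91 and 94.26 FPKM in KO and 88.06, 78.67 and 98.29 FPKM in WT (adjusted p = 0.285). The liver-type PFKL measured 15.01, 16.30 and 15.70 FPKM in KO and 14.43, 11.80 and 15.38 FPKM in WT (adjusted p = 0.196). The muscle-type PFKM measured 14.34, 14.01 and 13.06 FPKM in KO and 14.87, 13.73 and 16.09 FPKM in WT (adjusted p = 0.306). All 3 genes had overlapping groups. After the GC and length correction the log2 fold changes of PFKP and PFKL were −0.02 and −0.001, against 0.13 and 0.17 in the main test. PFKM gave 10.6 to 11.5% of the 3 genes' FPKM in KO libraries and 12.4 to 13.2% in WT libraries, ranges that do not overlap. Of its exonic bases 8.6% overlap SENP1 on the opposite strand, which averaged 4.53 ± 0.81 FPKM in KO and 6.4 ± 0.87 FPKM in WT (limma adjusted p = 0.0303). The part of SENP1 in the PFKM share was not tested. TPI1, the triose phosphate isomerase, measured 267.06, 278.64 and 244.42 FPKM in KO and 223.98, 209.99 and 247.17 FPKM in WT. The lowest KO library lay just below the highest WT library (adjusted p = 0.081; 0.0352 without WT 3, and up to 0.633 in the other alternatives).

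ALDOA, the aldolase of muscle and most other tissues, is listed at 2.57, 1.57 and 0.92 FPKM in KO and 1.39, 0.61 and 1.83 FPKM in WT, from 40 to 173 reads per library (limma adjusted p = 0.529). Its annotated exons overlap AC093512.2, a gene on the same strand, over 42.3% of their bases, and the partner averaged 1.03 and 0.711 FPKM in KO and WT. How the authors' counting treated reads shared by overlapping genes is not given in the sources used here and its part in the low level was not tested, so no aldolase share was computed.

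The bifunctional PFKFB enzymes, which set the level of fructose-2,6-bisphosphate, the strongest activator of phosphofructokinase-1, differed among themselves. PFKFB4 measured 21.19, 21.17 and 19.18 FPKM in KO libraries, against 7.77, 7.31 and 8.24 FPKM in WT libraries. No KO library came near the WT range, the ratio was 2.64 (log2 fold change 1.29, SE 0.07, limma adjusted p = 3.03e-05), and the log2 fold change ran from 1.17 to 1.39 over the alternatives. PFKFB4 lies on the minus strand of chromosome 3 (48517684 to 48562015). Of its exonic bases 4.7% overlap UCN2, the gene of a urocortin peptide, on the same strand, which averaged 41.7 ± 2.9 FPKM in KO and 17.6 ± 0.8 FPKM in WT (adjusted p = 5.04e-05). PFKFB3, the form usually linked to proliferating cells, measured 23.43, 24.38 and 24.27 FPKM in KO and 22.13, 21.69 and 24.87 FPKM in WT and did not pass (adjusted p = 0.449). Its log2 fold change of 0.07 was −0.08 with the GC and length trends removed. PFKFB2 was below the filter, with 0.64, 0.72 and 0.76 FPKM in KO and 0.19, 0.28 and 0.25 FPKM in WT, from 366 reads over the KO and 124 reads over the WT libraries. PFKFB4 made up 43.4 to 46.8% of the family's FPKM in KO libraries and 24.7 to 25.8% in WT libraries, with PFKFB3 holding 53.1 ± 1.6% and 74.0 ± 0.5%. The part of UCN2 in the level and share of PFKFB4 was not tested.

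**Figure D2:**
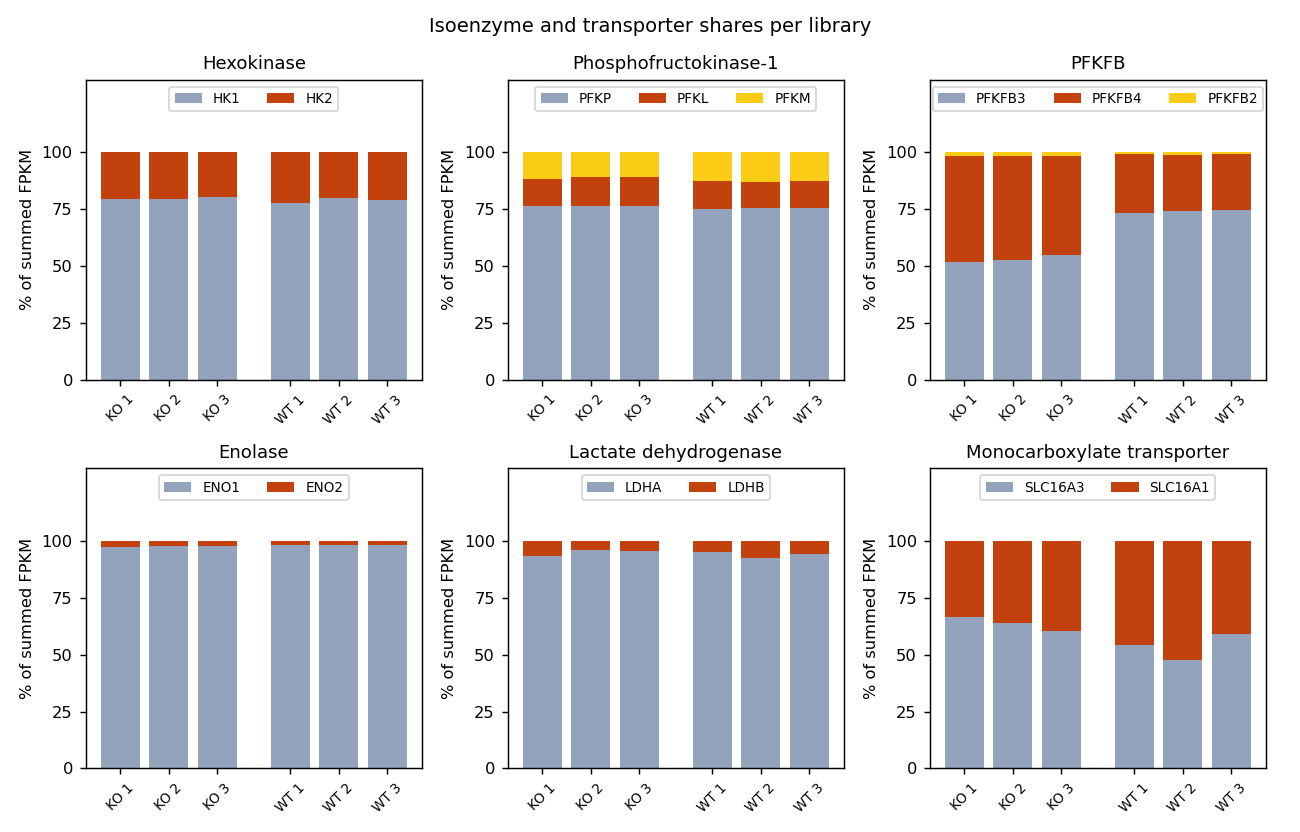
Each bar is a library, KO 1 to 3 left of WT 1 to 3, and the vertical axis gives each gene's percentage of the summed FPKM of its isoenzymes or transporters. The PFKFB4 share is 43.4 to 46.8% in KO and 24.7 to 25.8% in WT, while the HK2 share is 19.8 to 20.7% in KO and 20.2 to 22.0% in WT.

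From glyceraldehyde phosphate to pyruvate, 4 of 6 enzymes rose in KO cells, ENO2 by a wide margin and the abundant enzymes by small ones. The share of higher calls over all tested genes was 21.0%. ENO2, the neuron-type enolase, measured 17.03, 17.79 and 16.67 FPKM in KO, against 9.76, 10.36 and 10.52 FPKM in WT. Its groups were far apart, with a ratio of 1.68 (log2 fold change 0.70, SE 0.06, limma adjusted p = 0.000197), and it passed in all 15 alternatives. ENO1, the main enolase, measured 690.84, 757.44 and 741.71 FPKM in KO and 601.17, 608.93 and 652.78 FPKM in WT, a ratio of 1.18 (adjusted p = 0.037). On the level scale ENO2 gave 2.20 to 2.41% of enolase FPKM in KO and 1.59 to 1.67% in WT. PKM, the pyruvate kinase of tumours and muscle, measured 435.09, 437.79 and 445.93 FPKM in KO and 339.86, 342.64 and 380.40 FPKM in WT, a ratio of 1.24 (adjusted p = 0.0102). PGK1, the first ATP-forming enzyme of the pathway, measured 147.77, 164.62 and 172.50 FPKM in KO and 130.69, 146.14 and 131.51 FPKM in WT, a ratio of 1.19 (adjusted p = 0.0462), with KO 1 only just above WT 2. PGAM1 had separate groups as well, 256.37, 289.36 and 281.68 FPKM in KO and 239.68, 233.01 and 245.50 FPKM in WT, and did not pass (adjusted p = 0.0516). GAPDH, often used as a reference gene, measured 1152.54, 1198.41 and 1282.14 FPKM in KO and 1015.40, 1163.88 and 1060.14 FPKM in WT, and its groups overlapped (adjusted p = 0.152).

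The calls of the abundant enzymes depended on the setting. ENO1 lost its call in 9 of 15 alternatives (adjusted p from 0.0179 to 0.744), with a log2 fold change of 0.23 in the main test, 0.03 under quantile normalization and 0.13 when corrected for GC and length. It did not pass without KO 2 (0.141), KO 3 (0.102), WT 1 (0.133) or WT 2 (0.0914). PGK1 lost its call in 7 (0.00311 to 0.152), among them the analyses without KO 2 (0.14), KO 3 (0.138), WT 1 (0.152) and WT 3 (0.0984). PKM lost its call in 4 (0.00307 to 0.12), with a log2 fold change of 0.31 in the main test and 0.13 under quantile normalization, and at 0.0517 without WT 1. The log2 fold change of GAPDH was 0.17 in the main test, −0.01 after the GC and length correction and −0.08 under quantile normalization. PGAM1 passed without KO 1 (0.0298) and in 3 other alternatives (0.0298 to 0.493 over all 15). A group of 17 genes held the glycolytic enzymes, ALDOA included, and LDHA and LDHB. Together they summed to 3505.2 to 3789.6 FPKM in KO libraries and 3041.6 to 3229.2 FPKM in WT libraries, a ratio of means of 1.16. As a share of all FPKM in a library they gave 1.30 to 1.36% in KO and 1.22 to 1.24% in WT.

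Of the 4 genes of lactate formation and transport 1 was called higher, 1 lower and 2 did not pass. These counts lay close to the 21.0% higher and 22.4% lower of all tested genes. LDHA, the HIF-inducible subunit of lactate dehydrogenase, measured 244.24, 284.22 and 301.09 FPKM in KO and 220.37, 242.45 and 216.32 FPKM in WT. The ratio was 1.22 (log2 fold change 0.28, limma adjusted p = 0.0457), with KO 1 only just above WT 2, and the call was lost in 7 of 15 alternatives (0.00641 to 0.201), among them those without KO 2 (0.139), KO 3 (0.134), WT 1 (0.134) or WT 3 (0.104). LDHB measured 17.08, 11.36 and 14.15 FPKM in KO and 11.35, 19.57 and 12.60 FPKM in WT, with no separation (limma adjusted p = 0.977) and a sign that differed between settings. It gave 3.84 to 6.54% of the FPKM of both subunits in KO and 4.90 to 7.47% in WT. AC010197.2 on the same strand covers 33.4% of the exonic bases of LDHB and averaged 0.004 FPKM over all libraries. The part of this overlap in the level and share of LDHB was not tested. SLC16A1, which encodes the monocarboxylate transporter MCT1, fell in KO cells. It measured 27.31, 30.22 and 31.41 FPKM in KO libraries, against 39.03, 40.97 and 36.87 FPKM in WT libraries. All KO values lay below all WT values, the ratio was 0.761 (log2 fold change −0.38, SE 0.07, limma adjusted p = 0.00551), and it passed in all 15 alternatives. SLC16A3, which encodes MCT4, the lactate exporter of glycolytic cells and a HIF target, measured 54.77, 53.85 and 48.08 FPKM in KO and 46.75, 37.03 and 53.73 FPKM in WT, with overlapping groups (adjusted p = 0.265). The MCT1 share of both transporters' FPKM was 33.3 to 39.5% in KO and 40.7 to 52.5% in WT, without correction for GC content. After the GC and length correction the log2 fold changes of SLC16A1 and SLC16A3 were −0.33 and 0.02, against −0.38 and 0.20 in the main test. Of the exonic bases of SLC16A3 5.4% overlap CSNK1D on the opposite strand, which averaged 16.6 FPKM in KO and 13.3 FPKM in WT. The part of CSNK1D in the share was not tested.

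Neither pyruvate dehydrogenase kinase passed; these enzymes keep pyruvate out of the mitochondrial acetyl-CoA pool. PDK1 measured 1.53, 1.52 and 1.78 FPKM in KO and 1.30, 1.69 and 1.35 FPKM in WT (limma adjusted p = 0.465). PDK3 measured 1.75, 2.28 and 2.01 FPKM in KO and 1.80, 1.59 and 1.63 FPKM in WT (adjusted p = 0.181). PDK1, with 41.6% GC the poorest in GC of the members after HIF1A, was called higher with GC and length corrected for (log2 fold change 0.33, adjusted p = 0.0172, range over the alternatives 0.0172 to 0.761).

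Neither tested oxygen-sensing member passed, and the untested EGLN3 had more reads in every KO library. HIF1A measured 53.66, 46.69 and 57.20 FPKM in KO and 64.66, 69.15 and 52.37 FPKM in WT. The groups overlapped (log2 fold change −0.23, limma adjusted p = 0.159). The difference passed only without WT 3 (−0.35, adjusted p = 0.0296, range 0.0296 to 0.411), and its sign turned when GC and length were corrected for (0.11). EGLN1, which encodes the main prolyl hydroxylase PHD2, measured 9.68, 9.75 and 10.36 FPKM in KO and 11.08, 12.19 and 10.09 FPKM in WT (adjusted p = 0.167; 0.0487 without WT 3, up to 0.732 in the other alternatives). EGLN3, which encodes the strongly HIF-inducible hydroxylase PHD3, lay under the filter with 73, 87 and 121 reads in the KO libraries, against 15, 5 and 11 reads in the WT libraries. In FPKM these were 0.58, 0.69 and 0.99 in KO and 0.12, 0.0408 and 0.0899 in WT, so the KO mean was 8.98 times a WT mean that rests on 31 reads.

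Of the 7 further HIF targets 5 could be tested, and 4 rose and 1 fell, against 21.0% higher and 22.4% lower of all tested genes. DDIT4, an inhibitor of mTORC1 signalling that HIF, p53 and ATF4 can each induce, measured 47.78, 44.10 and 49.52 FPKM in KO, against 15.39, 15.76 and 18.03 FPKM in WT. The groups were widely separated, with a ratio of 2.88 (log2 fold change 1.47, SE 0.08, limma adjusted p = 3.18e-05). With the trends in GC and length removed the log2 fold change was 1.24. NDRG1, a growth-restraining gene used as a hypoxia marker, measured 41.30, 49.54 and 53.72 FPKM in KO and 27.09, 25.18 and 25.39 FPKM in WT. Its KO libraries varied more among themselves than its WT libraries and all lay above them, with a ratio of 1.86 (log2 fold change 0.86, SE 0.10, adjusted p = 0.000661). ANKRD37, an ankyrin-repeat gene induced by HIF, measured 3.75, 3.36 and 4.34 FPKM in KO and 1.95, 1.68 and 1.58 FPKM in WT, a ratio of 2.20 (adjusted p = 0.00085). Of its exonic bases 35.2% overlap UFSP2 on the opposite strand, which averaged 5.58 ± 0.69 FPKM in KO and 4.46 ± 0.17 FPKM in WT (adjusted p = 0.0435). Without a stated strand setting reads of the pair cannot be told apart.

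BNIP3, a mitophagy receptor, measured 14.26, 13.78 and 16.15 FPKM in KO and 11.17, 12.80 and 11.66 FPKM in WT, a ratio of 1.24 without overlap (limma adjusted p = 0.0248). Its call was lost in 7 of 15 alternatives (0.0168 to 0.096), among them those without KO 1 (0.0508), KO 3 (0.0729), WT 1 (0.0943) or WT 3 (0.0535). VLDLR, a lipoprotein receptor induced by HIF in several cell types, went the other way, at 1.20, 1.39 and 1.44 FPKM in KO and 2.73, 3.09 and 2.68 FPKM in WT. The highest KO value was below the lowest WT value, with a ratio of 0.475 (log2 fold change −0.71, SE 0.09, adjusted p = 0.0008), and it passed in all 14 alternatives that tested it.

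CA9, the cell-surface carbonic anhydrase that is among the most specific HIF1 targets, lay just under the filter. It had 37, 46 and 57 reads in the KO libraries and 10, 11 and 8 reads in the WT libraries, or 1.29, 1.60 and 2.06 FPKM in KO and 0.35, 0.40 and 0.29 FPKM in WT, a ratio of 4.77. ARHGEF39 covers 38.5% of its exonic bases on the opposite strand and averaged 2.30 ± 0.09 FPKM in KO and 2.12 ± 0.05 FPKM in WT (SD, n = 3 each; limma adjusted p = 0.392). ADM, the HIF-inducible vasodilator adrenomedullin, had 0, 1 and 2 reads in KO libraries and 0 reads in each WT library, too few to compare. Of the 4 members under the filter, CA9, EGLN3 and PFKFB2 had every KO library above every WT library. Among the 12000 tested genes 26.4% had this arrangement, and the share among genes under the filter was not computed. Only an analysis with no filter, over 31298 genes of which 8.00% were called higher, tested these 4 members. There 10 of the 36 members were called higher. The limma adjusted p was 0.00721 for CA9, 0.00996 for EGLN3 and 0.013 for PFKFB2.

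**Figure D3:**
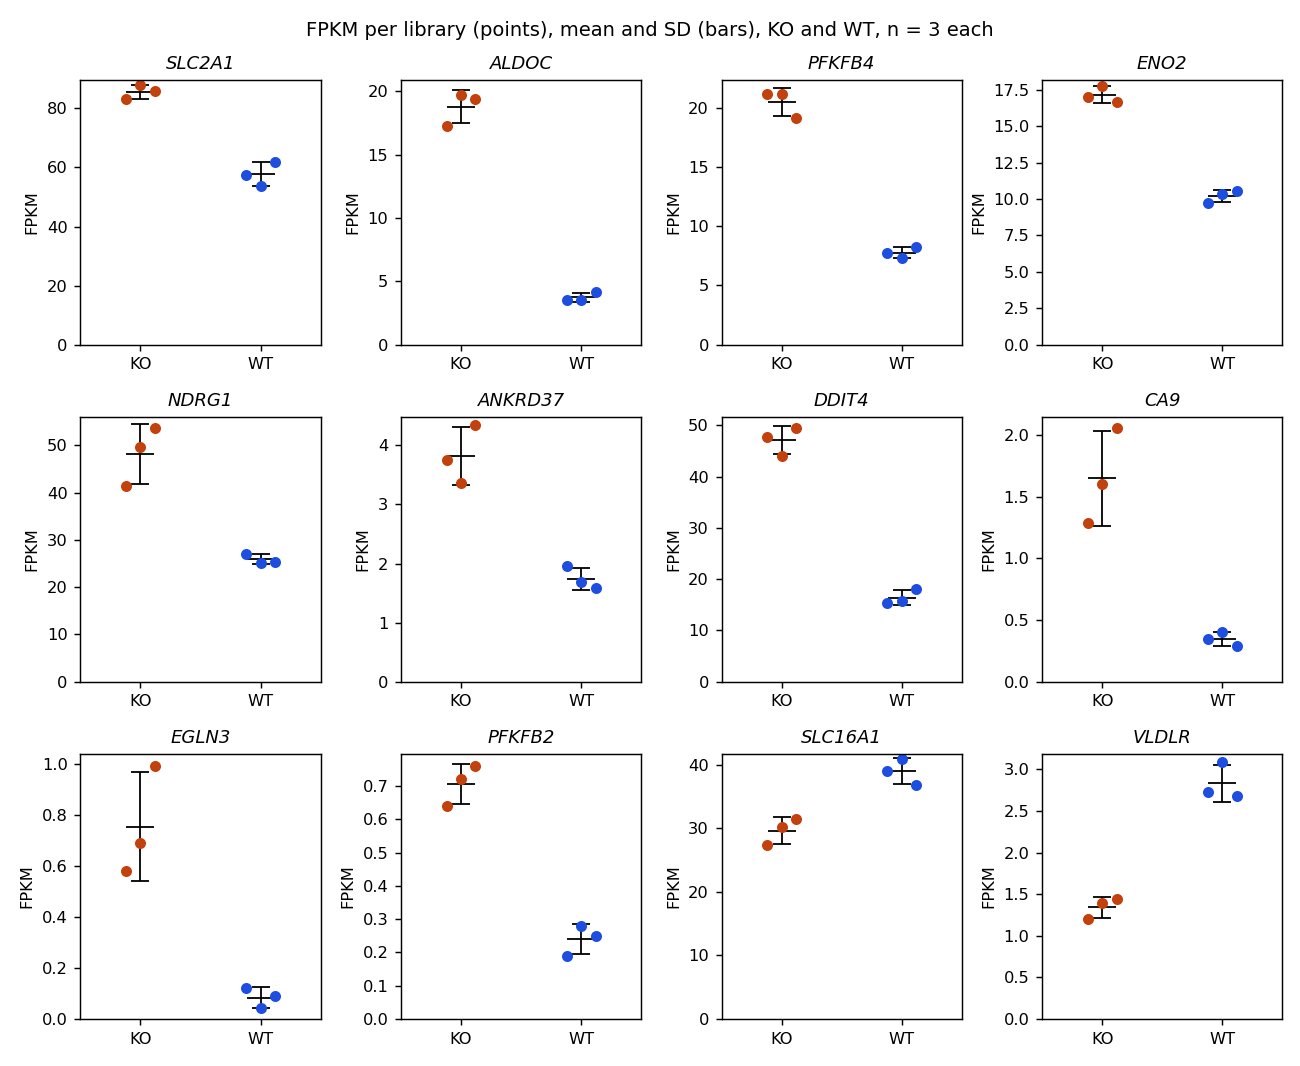
FPKM on a linear axis from 0 for 12 genes, with a point for each library, KO left of WT, and bars for the mean and SD (n = 3 each). SLC2A1, ALDOC, PFKFB4, ENO2, NDRG1, ANKRD37, DDIT4, CA9, EGLN3 and PFKFB2 have all KO points above all WT points, and SLC16A1 and VLDLR have them below.

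The 14 higher calls thus fell into a stable and an unstable part. SLC2A1, ALDOC, PFKFB4, ENO2, NDRG1, ANKRD37 and DDIT4 were called higher in every alternative that tested them, and SLC16A1 and VLDLR were called lower likewise; 14 alternatives tested ANKRD37 and VLDLR and 15 the others. The other 7, SLC2A3, GPI, PGK1, ENO1, PKM, LDHA and BNIP3, had KO to WT ratios of 1.18 to 1.25 and each lost its call in 4 to 9 alternatives.

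**Figure D4:**
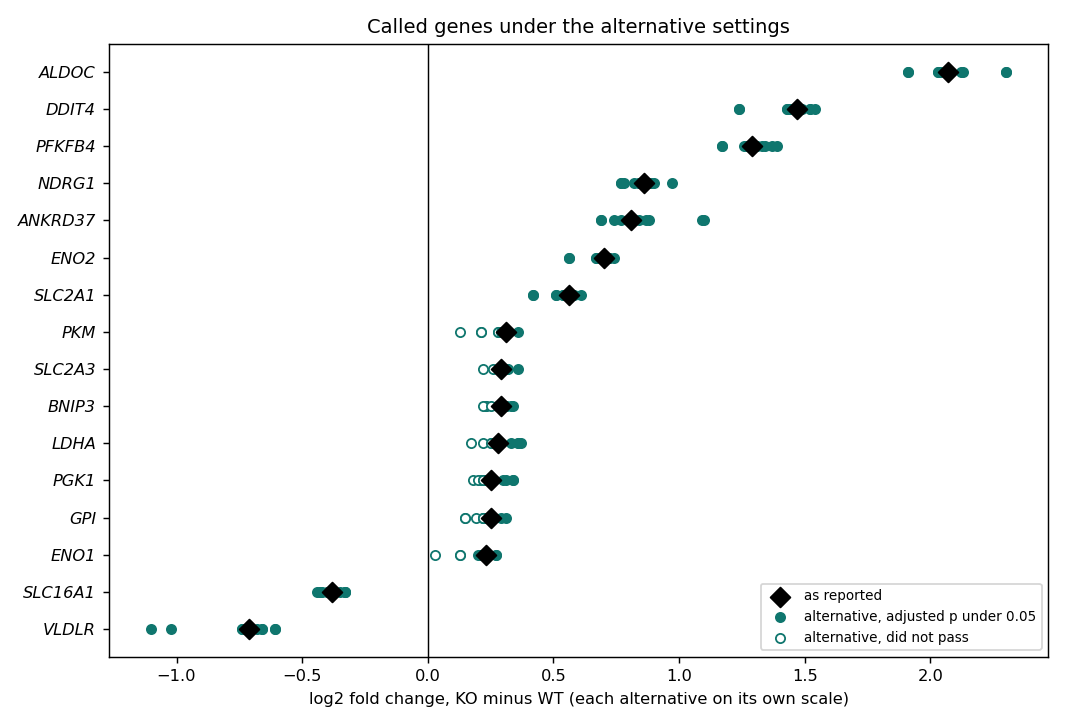
The horizontal axis gives the log2 fold change of KO minus WT for the 16 called genes, the diamond for the reported test and a circle for each alternative, filled where the adjusted p was under 0.05. The 7 genes from SLC2A1 upward and SLC16A1 and VLDLR at the bottom have filled circles only, and the 7 genes from ENO1 to PKM have open circles as well.

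Lists of genes from the same and neighbouring pathways were compiled beside the 36, also with earlier results of these data known. Of 41 other hypoxia-inducible genes 30 were tested, 15 rose and 6 fell, against 21.0% and 22.4% of all tested genes; the list's median log2 fold change was 0.25. With a filter at a mean of 5 FPKM 8 of 22 were called higher and 6 lower, with a median of 0.11. Over all genes that filter gave 1639 higher and 1564 lower of 7053. With no filter 11 of 41 were called higher and 6 lower, with a median of 0.14. All genes then gave 2503 higher and 2471 lower of 31298. BHLHE40, a transcriptional repressor, averaged 56.1 ± 3.3 FPKM in KO and 22.2 ± 0.4 FPKM in WT (limma adjusted p = 2.27e-05). The mitochondrial protein gene FAM162A averaged 14.3 ± 0.7 and 8.43 ± 0.45 FPKM, and KCTD11 8.64 ± 0.06 and 4.62 ± 0.49 FPKM (SD, n = 3 each). Among the genes that fell, LOX, lysyl oxidase, averaged 4.35 ± 0.78 FPKM in KO and 9.59 ± 1.14 FPKM in WT (adjusted p = 0.000896), and PLOD2, a lysyl hydroxylase, 13.3 ± 0.6 and 20.4 ± 2.1 FPKM (0.00179, but 0.121 when corrected for GC and length). CITED2, which competes with HIF for its coactivators, averaged 11.3 ± 1.2 and 17.0 ± 0.5 FPKM. VEGFA, the angiogenic growth factor, measured 19.46, 17.81 and 16.06 FPKM in KO and 14.16, 12.62 and 15.61 FPKM in WT, a ratio of 1.26 (adjusted p = 0.0366), a call lost in 7 of 15 alternatives (0.0211 to 0.111), among them those without KO 1 (0.111), KO 2 (0.0983), WT 1 (0.0931) or WT 2 (0.0884).

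Among 13 tested oxygen-sensing and HIF factors outside the set 3 rose and 2 fell, with a median log2 fold change of 0.03, against 21.0% higher and 22.4% lower of all tested genes. Without KO 3 the counts were 1 and 1, and without KO 2 or WT 1 the lower count was 1. Over all 12000 genes there were 2095 higher and 2323 lower calls without KO 3. Lower calls over all genes were 1964 without KO 2 and 1936 without WT 1. EPAS1, which encodes HIF2 alpha, averaged 13.4 ± 0.6 FPKM in KO and 11.1 ± 0.6 FPKM in WT (SD, n = 3 each; limma adjusted p = 0.0174, 0.0148 to 0.0604 over the alternatives, with 0.0604 without KO 1 and 0.0541 without KO 3). ARNT, the shared partner of the alpha subunits, averaged 5.32 ± 0.47 and 4.25 ± 0.25 FPKM (adjusted p = 0.0277, 0.0158 to 0.0973), and did not pass without KO 2 (0.0973), KO 3 (0.0505), WT 1 (0.0829) or WT 3 (0.0644). ELOB, a subunit of the VHL ubiquitin ligase, rose as well, at 127.6 ± 6.3 FPKM in KO and 98.9 ± 2.1 FPKM in WT, a call lost once GC and length were corrected for (adjusted p = 0.145). Those that fell were the coactivator gene CREBBP (4.20 ± 0.39 and 6.69 ± 0.51 FPKM) and OS9 (14.5 ± 1.0 and 18.0 ± 1.8 FPKM; limma adjusted p = 0.03), and the OS9 call was lost without KO 2 (0.0905), KO 3 (0.0913), WT 1 (0.0788) or WT 3 (0.0592). VHL, which targets hydroxylated HIF for degradation, averaged 15.7 ± 1.3 FPKM in KO and 13.5 ± 0.3 FPKM in WT and did not pass (adjusted p = 0.052; 0.0438 without KO 1, 0.0403 to 0.18 over the alternatives).

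Of 26 tested genes of glycogen metabolism, pyruvate entry and minor glycolytic isoforms 10 rose and 2 fell, with a median log2 fold change of 0.07 and 6 higher calls without WT 1. Among all 12000 tested genes 21.0% were higher and 22.4% lower, and 1853 were higher without WT 1. PDP1, a phosphatase that reactivates pyruvate dehydrogenase against the kinases, averaged 46.7 ± 1.2 FPKM in KO and 20.5 ± 1.7 FPKM in WT (limma adjusted p = 5.94e-05). The phosphoglucomutase genes moved in opposite directions, PGM1 at 16.5 ± 0.5 FPKM in KO and 9.33 ± 0.74 FPKM in WT and PGM2 at 17.1 ± 0.8 FPKM in KO and 31.5 ± 1.4 FPKM in WT (SD, n = 3 each). SLC2A12, a further glucose importer, averaged 2.08 ± 0.39 and 0.477 ± 0.101 FPKM, and PCK2, the mitochondrial carboxykinase, 7.45 ± 0.58 and 14.5 ± 1.0 FPKM. In the pentose phosphate pathway 4 of 8 genes rose and 1 fell, beside the same shares of all genes, with TKT at 120.0 ± 2.2 FPKM in KO and 85.9 ± 4.2 FPKM in WT. H6PD averaged 12.5 ± 1.1 FPKM in KO and 7.90 ± 1.02 FPKM in WT, and RPE, which fell, 16.3 ± 1.6 FPKM in KO and 22.3 ± 1.2 FPKM in WT. After the GC and length correction the pathway had 2 higher and 3 lower, where all genes gave 2587 higher and 2624 lower of 12000. A list of glucose-sensing factors and their targets also held MYC. In it TXNIP, an arrestin-like inhibitor of glucose uptake, averaged 5.28 ± 0.50 FPKM in KO and 1.05 ± 0.08 FPKM in WT (limma adjusted p = 2.98e-05). MYC, which drives many glycolytic genes in tumours, averaged 9.42 ± 0.01 FPKM in KO and 27.1 ± 2.3 FPKM in WT (limma adjusted p = 2.49e-05), while MLX and MLXIP did not pass.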

How the data were processed

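Messenger RNA was sequenced from 3 KO and 3 WT libraries, made with a SMARTER mRNA-Seq kit per the labels' protocols. The authors deposited FPKM values per gene; what they aligned and counted with, and whether strand was used, is not given in the sources used here. Mouse builds (GRCm38, mm10) are named in the submitters' processing notes, but the deposited identifiers and positions of 58735 of 58735 genes equal human GENCODE 29 on GRCh38. FPKM times gene length stepped in whole reads (within 0.02 of a whole read for 100.0% of values above 0), which gave the read numbers.

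Limma 3.58.1 in R 4.3.3 (lmFit, eBayes with trend, two-sided) was run on log2(FPKM + 1) for the 12000 genes averaging at least 1 FPKM, with genotype as the only term, and Benjamini-Hochberg adjustment over all of them; the test was checked on simulated reads. Fold changes on this scale understate changes of low genes, and ratios are of mean FPKM. No libraries of 1 genotype agreed within counting error (chi-square over degrees of freedom 4.92 to 16.5), so none was treated as a repeat deposit of another; whether they are separate cultures is not stated. GC content per gene came from GENCODE transcripts (11992 of the 12000 genes). The 15 alternatives cover pseudocount, filter, scaling, limma-voom on recovered reads, GC and length, replicate block and each library left out. All 36 members are accounted for; other genes named are up to 3 per list and direction with the smallest adjusted p, plus ADGRG1, ARNT, EPAS1, VHL, VEGFA, TXNIP and MYC; MLX and MLXIP were named after their values were seen. A gene that this rule names is not reported here. Members and lists were chosen with earlier results of these data known.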

Additional observations from a re-analysis of the deposited data

How the results depend on the processing

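The number of members called higher in KO was 14. It was 9 under quantile normalization, 9 with the replicate block and 7 to 14 with 1 library left out, and within 1.5 times of 14 otherwise. Over all genes higher calls ran from 1853 to 2657 with 1 library left out and numbered 2572 under quantile normalization, against 2525. The number of members called lower was 2, against 1 under a filter at 5 FPKM (which removes VLDLR) and 2 to 4 with 1 library left out. Their median log2 fold change of 0.21 was 0.14 under quantile normalization and 0.12 after the GC and length correction, with or without the replicate block; the cause was not tested. Same-numbered KO and WT libraries did not deviate together (correlations −0.074, −0.184 and −0.348). The libraries also carried differing GC trends, so these correlations cannot settle whether the numbers mark pairs. The block gave 1900 higher and 1966 lower calls over all genes, against 2525 and 2682.

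Single members turned sign in 16 of 475 values, none of them called: after the GC and length correction, the same to 2 decimals with the block, PFKL (−0.001), PFKP (−0.02), PFKFB3 (−0.08), GAPDH (−0.01), LDHB (0.06) and HIF1A (0.11); under quantile normalization GAPDH (−0.08); without WT 2 HK2 (−0.02) and LDHB (0.21); without KO 2 LDHB (0.13). With 1 library left out HK2 ran from −0.02 to 0.09 and LDHB from −0.16 to 0.21. A further 47 values lost and 9 gained a call.

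In the other lists, the filter at 5 tests fewer genes. It left 6 glycogen, pyruvate and minor glycolytic genes higher (10 in the main test, 6 to 10 with 1 library left out) and 8 hypoxia-inducible genes higher (15). In the list of glucose-sensing factors and their targets it left 0 higher (1, and 2 with no filter). Over all genes it gave 1639 higher and 1564 lower calls. Pentose phosphate genes had 2 higher (4) after the GC and length correction, with or without the block, and 3 lower (1) there, under quantile normalization and with limma-voom. Over all genes higher and lower calls numbered 2587 and 2624 after that correction, and 2061 and 2110 with the block added. They numbered 2572 and 2610 under quantile normalization and 2407 and 3145 with limma-voom, against 2525 and 2682 in the main test. Oxygen-sensing factors had 1 lower (2) with no filter and with the block, 1 to 3 higher (3) and 1 to 2 lower with 1 library left out. A read over 1 kb is worth 0.0581 to 0.0602 FPKM, which limits ADM, EGLN3, CA9 and PFKFB2.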
